A study of Mus musculus with 6 samples.

Results

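The Wnt signalling genes of the rat ovary are described here: the Wnt ligands, the Frizzled and LRP receptors, the secreted inhibitors, the R-spondins with their receptors and ubiquitin ligases, and a few intracellular components and feedback genes. They were taken by gene symbol (all Wnt, Fzd, Dkk, Sfrp and Rspo genes, with Nkd1, Nkd2, Axin2, Lrp5, Lrp6, Wif1, Lgr4, Lgr5, Znrf3, Rnf43, Ctnnb1, Lef1 and Tcf7), and a gene needed a count in at least 1 library. This list, Nkd2 included, was drawn up with earlier results of these data known, so it was not blind to them. The rule found 51 of the 22487 genes in the deposited table, all 51 annotated as protein coding and spread over 15 chromosomes. Ovarian tissue of adult female rats of wild-type genotype was sequenced in 2 groups, 3 libraries from animals exposed to cowshed PM2.5 (fine airborne particulate matter) and 3 libraries from control animals whose treatment is given as none, all with a title that carries 30 days, whose meaning is not stated. The mouse is given as the organism in the labels, but the titles and the Ensembl identifiers of the genes are those of the rat, and the samples were treated as rat. Strain, dose and route are not in the labels, nor is it stated that libraries within a group are from different animals, so the p-values speak only of the spread among these libraries, which may be technical.

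Wnt proteins are secreted, lipid-modified ligands that bind Frizzled receptors. With the co-receptors LRP5 and LRP6, many of them stabilise beta-catenin, which enters the nucleus and acts with the TCF and LEF factors on target genes, among them the feedback inhibitor Axin2, while others such as Wnt5a and Wnt11 act mainly through beta-catenin-independent branches. R-spondins strengthen the signal by keeping the ligases ZNRF3 and RNF43 from removing Frizzled receptors, and DKK, SFRP and WIF1 proteins block it outside the cell. In the ovary Wnt4 and Rspo1 are known as factors of ovarian determination, and in mice Fzd4 is needed for normal corpora lutea.

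Total counts ranged from 49554241 to 60749578 in the PM2.5 libraries and from 47662338 to 51530427 in the control libraries, with 19258 to 19841 genes having a count in a library. Granulosa cell markers such as Foxl2, Inha and Fshr were present in all 6 libraries, as the tissue label implies. Summed CPM (counts scaled to library size with TMM factors, in the usual per-million unit) of 7 granulosa markers ran from 2978 to 8632 in PM2.5 and from 1435 to 6855 in controls. The 5 luteal markers summed to between 4905 and 13590 CPM in PM2.5 and to between 7895 and 16100 CPM in controls, so both sums varied among libraries of the same group. Foxl2, a granulosa cell transcription factor, varied less, with 47.5, 35.9 and 43.0 CPM in PM2.5 and 46.3, 35.1 and 40.6 CPM in controls. In bulk tissue, fewer cells of a type and less RNA per cell cannot be told apart.

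Of the 51 genes, 37 had a mean of at least 0.5 FPKM (fragments per kilobase of transcript and scaled to library size, the authors' values) over the 6 libraries and were tested with all other genes that passed this filter, 15303 in all. Nkd2 fell in the PM2.5 ovaries. It was the 1 member of 37 that passed edgeR's quasi-likelihood test at 0.05 after Benjamini-Hochberg adjustment across the genes tested, where 0.928% of all genes passed. DESeq2 called 8 of the 37 members and 1767 of all 15303 genes. At an unadjusted p below 0.05, 9 of the 37 members passed, or 24.3%, beside 20.9% of all genes tested, a share near the background in this fit. Without the filter the share was 31.4% of members beside 16% of all genes. With the filter, 7 of the 9 members were lower in PM2.5, where 11.7% of all genes were lower at this threshold. They were Nkd2, Wnt2b, Wnt10b, Fzd9, Fzd8, Lrp5 and Wnt11. The 2 that were higher were Sfrp2 and Fzd10, where 9.17% of all genes were higher. These counts are a description, since 6 members (Fzd9, Fzd10, Sfrp2, Dkk2, Rspo3 and Wnt10a) were under 0.5 FPKM on average in 1 group and entered the test only through the group where they were high. Of the other 31 members, 6 had an unadjusted p below 0.05. The matching share of all genes at or above 0.5 FPKM in both groups was not counted. The groups did not overlap in 9 of the 37 members, or 24.3%, beside 27.2% of all genes tested. The median log2 fold change (PM2.5 over control) of the 37 members was 0.03, beside 0.00 over all genes, with 18 members below 0 and 19 above.

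**Figure D1:**
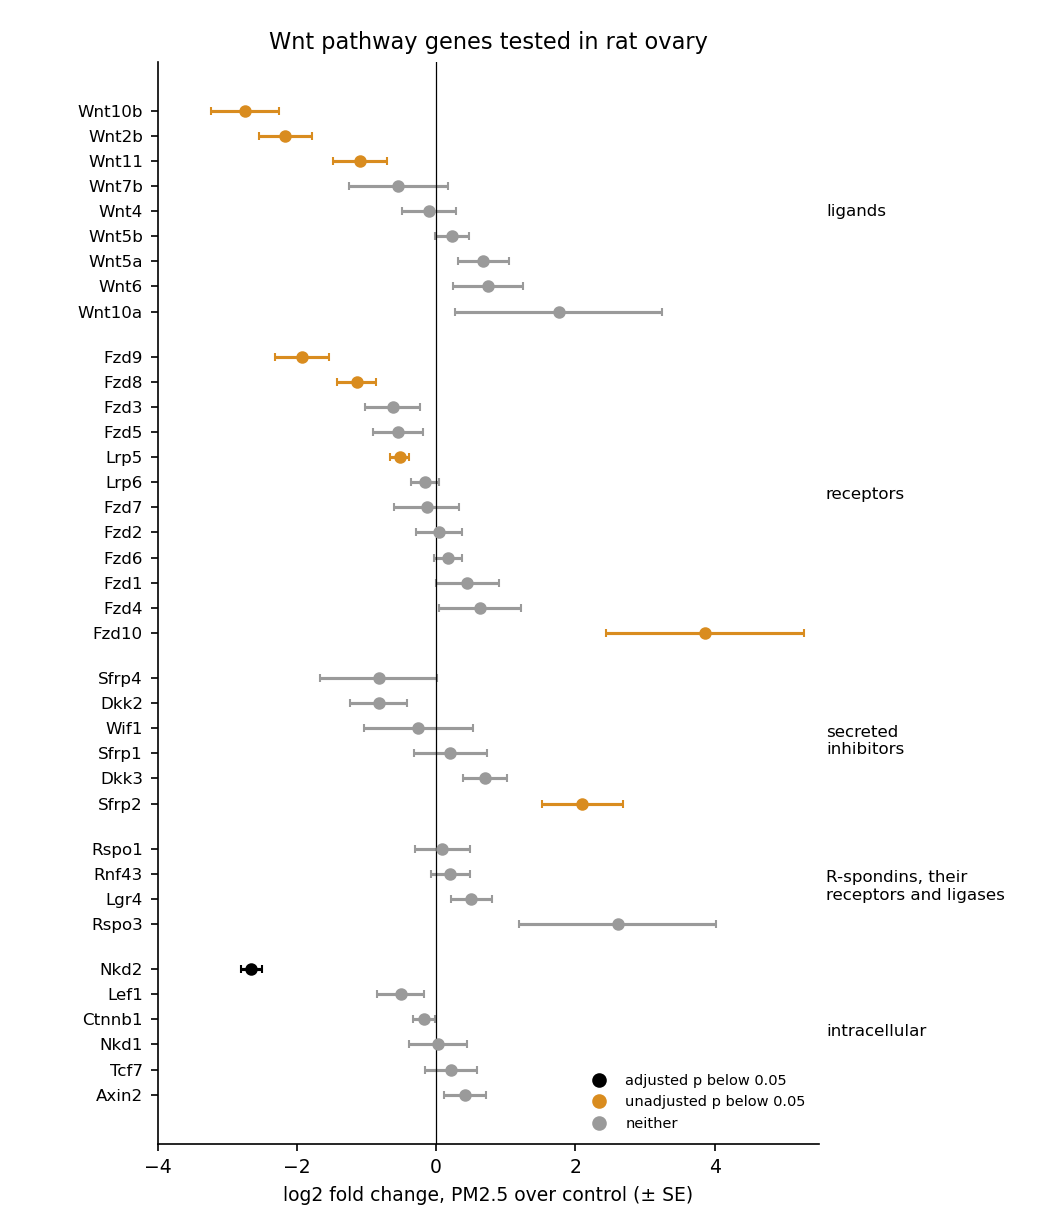
Log2 fold change of PM2.5 over control (x axis, bars are ± SE from edgeR) for the 37 tested Wnt genes, grouped by role down the page. Nkd2 at -2.66 is the black point, the member past the adjusted threshold. The orange points passed an unadjusted p below 0.05 and the grey points neither.

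Nkd2 is a Naked cuticle homologue, a cytoplasmic protein that binds Dishevelled and is known as a negative regulator of Wnt signalling; it also binds the precursor of transforming growth factor alpha and takes part in its delivery to the cell surface. The table places it on the plus strand of chromosome 1 from 29441328 to 29470821, in a genome build that the labels and file headers do not name, and no other row of the table overlaps it. It had 681, 856 and 620 counts in PM2.5 libraries 1 to 3, against 4402, 3740 and 4172 counts in controls 1 to 3. On the CPM scale this was 13.0, 14.1 and 12.5 in PM2.5 and 92.1, 73.1 and 84.3 in controls. All PM2.5 libraries lay close together and far below every control. The mean was 13.2 ± 0.825 CPM in PM2.5 and 83.2 ± 9.50 CPM in controls (SD, n = 3 each).

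The log2 fold change of Nkd2 was -2.66 ± 0.15 (SE), or 6.30-fold lower (edgeR adjusted p = 0.00843), and by p it stood at rank 1 of the 15303 genes tested. Its log2 fold change lay between -2.74 and -2.25 in every alternative run, and the unadjusted p did not exceed 4.02e-05 in any of them. The adjusted p rose above the threshold without PM2.5 library 2 (0.148) and without control 1 (0.0556), in edgeR fits in which no gene of the table passed. With the replicate number as a block it was 0.103 in edgeR and 0.0552 in limma.

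Nkd1, the other Naked cuticle homologue, did not follow it. Nkd1 had 21.8, 30.8 and 36.6 CPM in the PM2.5 libraries and 26.3, 46.6 and 14.7 CPM in the controls, with overlapping groups and a log2 fold change of 0.03 ± 0.42 (edgeR adjusted p = 0.978). Per length, Nkd2 had 2.43, 2.64 and 2.34 FPKM and Nkd1 had 7.66, 10.8 and 12.9 FPKM in PM2.5 libraries 1 to 3, so Nkd2 was the lower of the pair in each of them. In controls 1 to 3, Nkd2 had 17.2, 14.2 and 15.1 FPKM and Nkd1 had 9.20, 16.9 and 4.93 FPKM. Nkd2 was the higher of the pair in controls 1 and 3 and the lower in control 2.

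Axin2, the scaffold protein of the beta-catenin destruction complex whose transcription beta-catenin drives in many tissues, had 8.60, 9.55 and 10.1 CPM in PM2.5 and 7.53, 8.86 and 4.75 CPM in controls. The groups overlapped, since PM2.5 library 1 lay below control 2, and the log2 fold change was 0.42 ± 0.31 (edgeR adjusted p = 0.466). Ctnnb1, which encodes beta-catenin itself, was the most abundant member per length, with a mean of 103 ± 6.56 FPKM in PM2.5 and 115 ± 13.2 FPKM in controls. It had 438, 387 and 406 CPM in PM2.5 and 401, 475 and 510 CPM in controls, again overlapping, with a log2 fold change of -0.17 ± 0.16. The transcription factors Lef1, at -0.51 ± 0.34, and Tcf7, at 0.22 ± 0.37, did not pass either. Of the 6 intracellular members, Nkd2 was thus the one that passed at either threshold.

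**Figure D2:**
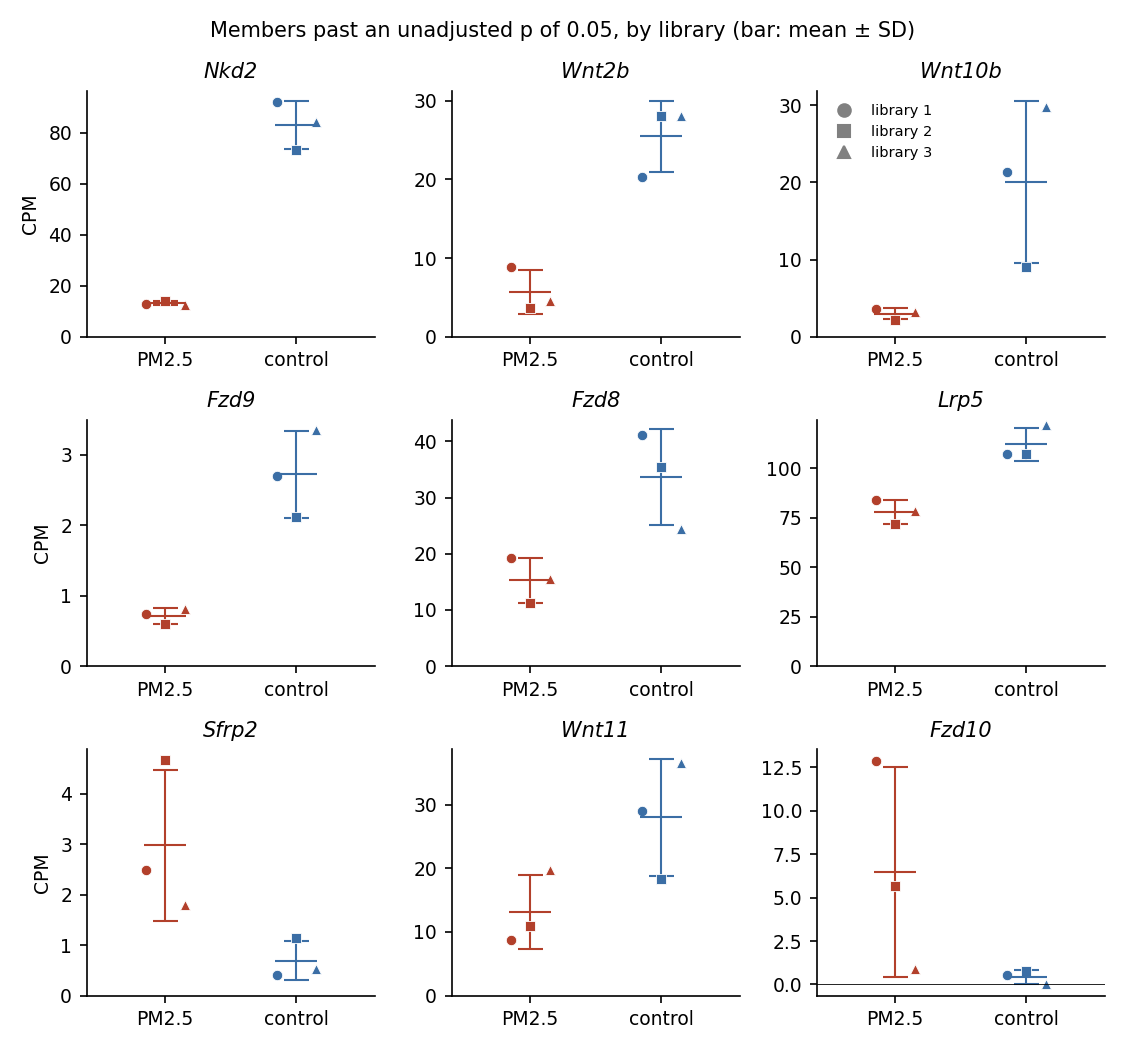
CPM per library (y axis, linear, each panel on its own scale) for the 9 members with an unadjusted p below 0.05, PM2.5 on the left and control on the right of each panel; bars are mean ± SD over 3 libraries. Nkd2 shows groups that are tight and far apart, between 12.5 and 14.1 CPM in PM2.5 and between 73.1 and 92.1 CPM in controls, while Fzd10 in PM2.5 is spread from 0.866 to 12.9 CPM.

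Among the ligands, 9 of 17 were tested, and 3 had an unadjusted p below 0.05, all lower in PM2.5, or 33.3% beside 20.9% of all genes and 11.7% lower. None passed over all genes in edgeR. Wnt2b, a ligand of the beta-catenin branch, had 8.83, 3.66 and 4.55 CPM in PM2.5 and 20.3, 28.1 and 28.0 CPM in controls. The highest PM2.5 library was below the lowest control. The log2 fold change was -2.17 ± 0.38, or 4.48-fold lower, with an edgeR adjusted p of 0.0581. Whether it passed depended on the tool. It passed in limma on log2(FPKM + 1) (adjusted p = 0.0429) and in DESeq2 (adjusted p = 4.99e-06), which called 1767 of all 15303 genes. On the table's coordinates Wnt2b overlaps St7l on the opposite strand, and without a stated strand setting their reads may not be separated. St7l had 1237, 1730 and 1343 counts in PM2.5 and 2145, 1544 and 2087 counts in controls, a log2 fold change of -0.57 ± 0.20 (edgeR adjusted p = 0.177).

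Wnt10b, a beta-catenin branch ligand known for holding back the formation of fat cells, had 3.61, 2.14 and 3.24 CPM in PM2.5 and 21.3, 9.04 and 29.8 CPM in controls. The groups were apart, with the controls widely spread and control 2 the lowest of them. The log2 fold change was -2.74 ± 0.48, or 6.69-fold lower, with an edgeR adjusted p of 0.0584. DESeq2 called Wnt10b (adjusted p = 1.89e-06), while limma on log2(FPKM + 1) did not (adjusted p = 0.0619). Wnt11, a ligand known mainly from beta-catenin-independent signalling, had 8.70, 11.0 and 19.8 CPM in PM2.5 and 29.0, 18.3 and 36.6 CPM in controls. Here PM2.5 library 3 lay above control 2, and the log2 fold change was -1.09 ± 0.39 (edgeR adjusted p = 0.184).

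The other tested ligands lay between -0.54 and 1.76 on the log2 fold change scale. Wnt6 had 11.0, 18.1 and 24.8 CPM in PM2.5 and 15.2, 12.6 and 4.32 CPM in controls, and Wnt5b had 23.7, 25.2 and 17.0 CPM in PM2.5 and 22.0, 19.9 and 14.2 CPM in controls, both with overlapping groups. Wnt5b overlaps Fbxl14 on the opposite strand, whose log2 fold change was -0.18 ± 0.19. Wnt5a, a ligand of the beta-catenin-independent branch, had 38.0, 35.7 and 15.3 CPM in PM2.5, so that library 3 was below 2 of the 3 controls, which had 21.2, 20.4 and 13.9 CPM. Its log2 fold change was 0.68 ± 0.37 (edgeR adjusted p = 0.335). Wnt4 was at similar levels, 4.08, 2.95 and 5.68 CPM in PM2.5 and 3.28, 4.69 and 5.70 CPM in controls (-0.11 ± 0.39).

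On the per-length scale the order of the ligands differed between the groups. In PM2.5 the highest mean levels were those of Wnt5b (8.71 ± 1.71 FPKM) and Wnt6 (7.82 ± 3.00 FPKM), followed by Wnt11 (4.57 ± 2.04 FPKM) and Wnt5a (4.56 ± 1.92 FPKM), with Wnt2b (1.67 ± 0.818 FPKM) and Wnt10b (1.20 ± 0.308 FPKM) at ranks 6 and 7. In controls Wnt11 (9.62 ± 2.82 FPKM), Wnt10b (7.91 ± 3.89 FPKM), Wnt2b (7.49 ± 1.36 FPKM) and Wnt5b (7.42 ± 1.76 FPKM) stood at ranks 1 to 4 and did not differ from their neighbours beyond these SDs. Wnt5b and Wnt6 likewise did not differ beyond their spread in PM2.5. Summed over all 17 ligands, the level was 31.9, 34.0 and 35.6 FPKM in the PM2.5 libraries and 48.1, 43.6 and 45.9 FPKM in the controls. Wnt11, Wnt2b and Wnt10b together made up 22.2, 16.9 and 26.8% of that sum in PM2.5 and 51.0, 43.5 and 68.8% in controls, a description only, since these 3 ligands were picked for their p.

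**Figure D3:**
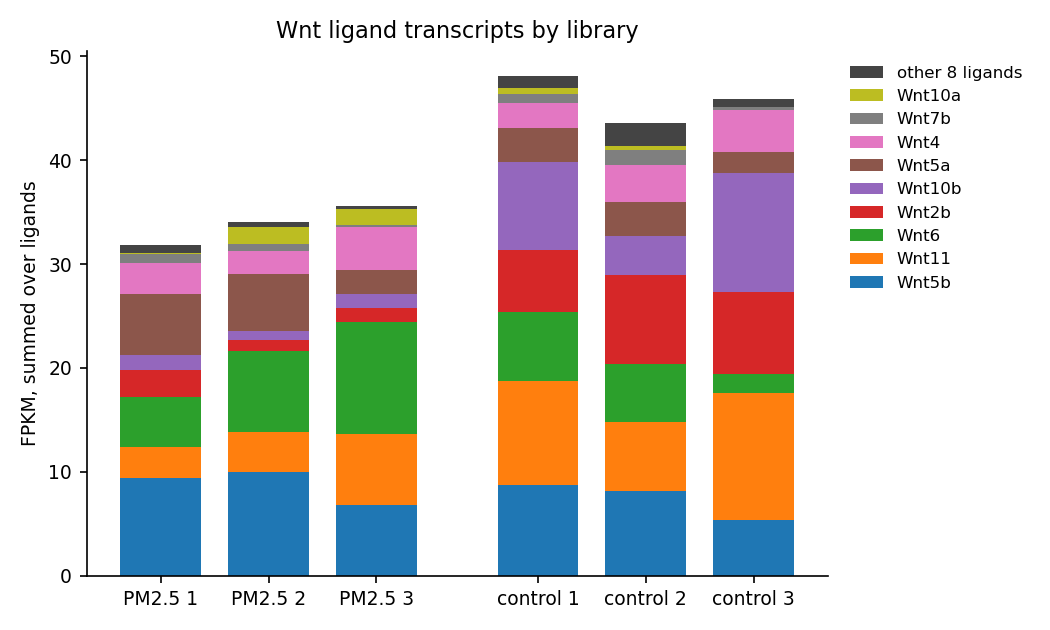
Summed FPKM of the Wnt ligands (y axis) in each library, the 3 PM2.5 libraries on the left and the 3 controls on the right, stacked by gene. The bands of Wnt2b and Wnt10b are narrow in the PM2.5 libraries and wide in the controls, and the total is 31.9 to 35.6 FPKM in PM2.5 and 43.6 to 48.1 FPKM in controls.

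The 14 members under the filter, 8 of them ligands, had between 0 and 218 counts in a library and were not tested. For 4 of these ligands, Wnt1, Wnt3, Wnt16 and Wnt7a, every library of 1 group had counts and no library of the other did. This is a description outside the main test. The share of all genes with this pattern was not counted. Wnt1, the founding member of the family, had no count in any PM2.5 library and 35, 58 and 19 counts in controls 1 to 3. With 3 counts in each library taken as the floor, its mean was at least 13.5-fold lower in PM2.5. Wnt16 also had no count in PM2.5 and 24, 47 and 8 counts in controls, a mean at least 9.47-fold lower. Wnt3 had no count in PM2.5 and 4, 36 and 18 counts in controls, a mean at least 6.89-fold lower. These folds set the control mean against the floor and do not hold for each library. Wnt3 in control 1 stood at 0.0837 CPM, beside a floor of 0.0557 CPM. Each of the 3 was thus seen in all controls and in no PM2.5 library, at levels of at most 1.13 CPM.

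Wnt7a, a ligand known from the epithelium of the oviduct and uterus, had the opposite pattern, with 53, 61 and 8 counts in PM2.5 and none in any control. Its mean was at least 12.0-fold higher in PM2.5. Wnt8b had 14 counts in control 1 and none elsewhere. Wnt9a had 54, 43 and 29 counts in PM2.5 and 81, 161 and 77 counts in controls, without overlap on the CPM scale. Floors cover counting error only, and in each library 31.8 to 33.9% of the values from 1 to 20 were multiples of 4, where 25% would be chance, so a low count here may not stand for single independent reads. When the filter was dropped, none of the 14 passed over all genes in edgeR, and 6 had an unadjusted p below 0.05 (16% of all genes did in that fit). Wnt1, Wnt3, Wnt16 and Wnt7a, named for being at 0 in 1 group, were among these 6. The smallest adjusted p was that of Wnt1 (0.0933).

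**Figure D4:**
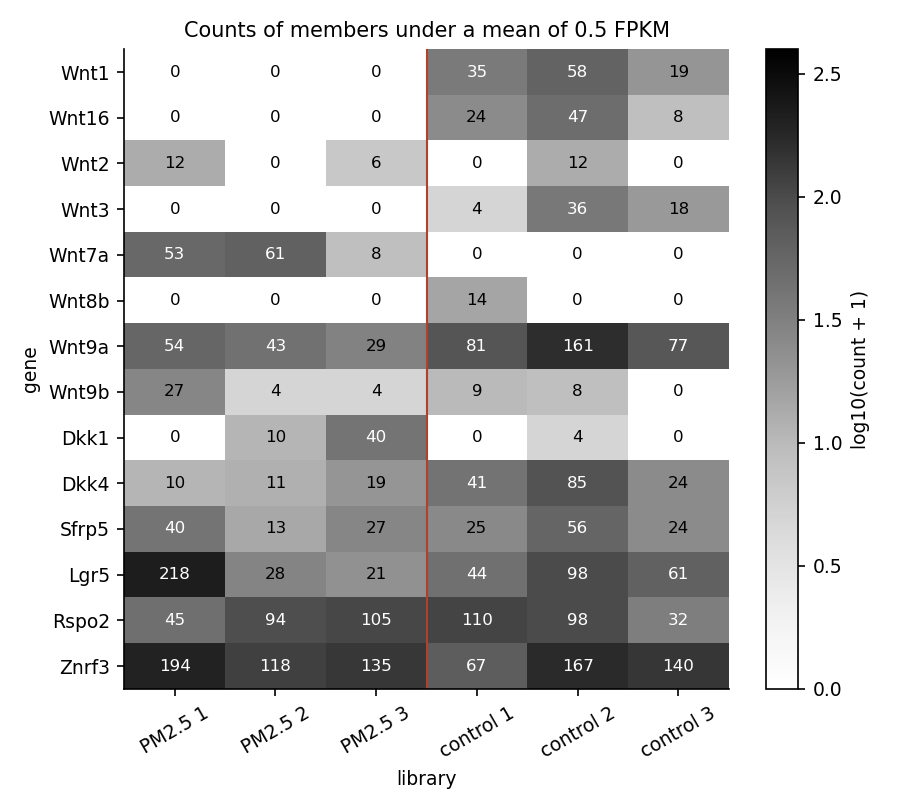
Counts per library (printed in each cell, shaded by log10(count + 1)) for the 14 members under a mean of 0.5 FPKM, the PM2.5 libraries left of the red line and the controls right of it. Wnt1, Wnt3 and Wnt16 are at 0 in all PM2.5 libraries, and Wnt7a is at 0 in all controls.

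In the table's coordinates 3 pairs of ligands lie side by side. Wnt10b and Wnt1 lie on chromosome 7 on opposite strands with 10711 bases between them, and for both the highest PM2.5 value was below the lowest control value. Wnt6 and Wnt10a lie on chromosome 9 on the same strand with 6407 bases between them. Wnt10a had 11, 261 and 212 counts in PM2.5 and 76, 51 and 0 counts in controls, and neither gene of this pair passed at either threshold. Wnt9b and Wnt3 lie on chromosome 10 on opposite strands with 23212 bases between them. Wnt9b had 27, 4 and 4 counts in PM2.5 and 9, 8 and 0 counts in controls, so it did not share the pattern of Wnt3.

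All 12 receptor genes were tested, and 4 had an unadjusted p below 0.05, or 33.3% beside 20.9% of all genes. Of these, 3 were lower and 1 higher in PM2.5, and none passed the threshold over all genes in edgeR. Lrp5, a co-receptor of the beta-catenin branch and the most abundant receptor per length, had 84.2, 72.0 and 78.2 CPM in PM2.5 and 107, 108 and 122 CPM in controls. The groups were apart with little spread, and the log2 fold change was -0.52 ± 0.13 (edgeR adjusted p = 0.112). DESeq2 called Lrp5 (adjusted p = 0.0146), while limma on log2(FPKM + 1) did not (adjusted p = 0.118). Lrp6, the second co-receptor, had overlapping groups and a log2 fold change of -0.16 ± 0.20. The difference between the log2 fold changes of Lrp5 and Lrp6 was not tested.

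Fzd8 had 19.2, 11.2 and 15.4 CPM in PM2.5 and 41.2, 35.5 and 24.4 CPM in controls, a log2 fold change of -1.14 ± 0.28 (edgeR adjusted p = 0.110). Fzd9 entered the test through the controls, with a mean of 0.272 FPKM in PM2.5 and 1.04 FPKM in controls. It had 0.744, 0.593 and 0.806 CPM in PM2.5 and 2.70, 2.11 and 3.35 CPM in controls, with a log2 fold change of -1.93 ± 0.39 (edgeR adjusted p = 0.0750). For both Frizzled receptors the highest PM2.5 library lay below the lowest control. Fzd10 went the other way, with 675, 343 and 43 counts in PM2.5 and 26, 40 and 0 counts in controls, with PM2.5 libraries far from each other and the lowest of them, at 0.866 CPM, just above the highest control, at 0.782 CPM. Its log2 fold change was 3.86 ± 1.42 (edgeR adjusted p = 0.197), and without PM2.5 library 1 its mean fell under the filter and it was not tested.

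The other 8 receptor genes lay between -0.62 and 0.63 in log2 fold change, 4 below 0 and 4 above. Fzd6, the most abundant Frizzled receptor per length, had 50.7, 41.2 and 44.4 CPM in PM2.5 and 30.6, 46.5 and 43.9 CPM in controls (0.17 ± 0.20). Fzd4 had 12.2, 3.53 and 4.45 CPM in PM2.5 and 2.61, 3.70 and 6.66 CPM in controls, with 1 high library, PM2.5 library 1, and a log2 fold change of 0.63 ± 0.59.

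Of the 9 secreted inhibitors 6 were tested, and Sfrp2, a secreted Frizzled-related protein that binds Wnt ligands, was the one with an unadjusted p below 0.05. It had 131, 283 and 89 counts in PM2.5 and 20, 58 and 26 counts in controls, without overlap, and entered the test through PM2.5, with a mean of 1.35 FPKM there and 0.312 FPKM in controls. It had a log2 fold change of 2.10 ± 0.59 (edgeR adjusted p = 0.132). Sfrp4, which luteal cells of rodents express, was the most abundant inhibitor per length and rested on 1 library. It had 105, 55.0 and 42.5 CPM in PM2.5 and 57.2, 25.2 and 277 CPM in controls, so that control 3 stood far above the other 5 libraries. Its log2 fold change was -0.83 ± 0.84, and 0.72 without control 3, neither past the threshold. Control 3 also had the highest summed luteal markers, 16100 CPM, and the lowest granulosa markers, 1435 CPM, and their part in the Sfrp4 value was not tested.

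Dkk3, a divergent member of the Dickkopf family, had 55.9, 60.6 and 46.2 CPM in PM2.5 and 25.4, 51.1 and 23.3 CPM in controls, with control 2 among the PM2.5 values and a log2 fold change of 0.71 ± 0.32 (edgeR adjusted p = 0.263). Dkk2 had 1.77, 1.85 and 1.31 CPM in PM2.5 and 2.41, 2.19 and 4.12 CPM in controls, apart but with a log2 fold change of -0.82 ± 0.41 (edgeR adjusted p = 0.300). Dkk4, under the filter, had 10, 11 and 19 counts in PM2.5 and 41, 85 and 24 counts in controls, and it overlaps the far more abundant Polb on the opposite strand. Sfrp1, at 0.21 ± 0.52, and Wif1, at -0.26 ± 0.78, had overlapping groups.

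Of the 7 genes of the R-spondin arm 4 were tested and none passed at either threshold, though all 4 log2 fold changes were above 0. Lgr4, an R-spondin receptor and the most abundant gene of this arm, had 120, 106 and 84.1 CPM in PM2.5 and 44.0, 93.4 and 81.1 CPM in controls, with PM2.5 library 3 below control 2 and a log2 fold change of 0.51 ± 0.29. Rspo1 had 6.14, 5.16 and 4.87 CPM in PM2.5 and 4.43, 7.65 and 3.09 CPM in controls (0.09 ± 0.40), and the ligase gene Rnf43 lay at 0.21 ± 0.28. Rspo3 had 119, 231 and 13 counts in PM2.5 and 10, 42 and 0 counts in controls, with PM2.5 library 3 below control 2. Its log2 fold change of 2.61 ± 1.41 did not pass (edgeR adjusted p = 0.335). Lgr5, a target gene of beta-catenin as well as a receptor, stood at 218 counts in PM2.5 library 1 and between 21 and 98 in the other 5 libraries.

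Some members and the summed markers of epithelia, smooth muscle and fat shared their highest libraries. Fzd10, Rspo3, Sfrp2, Wnt5a and Wnt7a were highest in PM2.5 libraries 1 and 2, as were Lgr4, Dkk3 and Wnt5b. These members were picked after their values were seen. The order within them differed, with Fzd10 at 12.9 CPM in library 1 and 5.65 CPM in library 2. The smooth muscle and oviduct sums were higher in library 2. In the same libraries the 6 surface epithelium markers in the table summed to 156 and 215 CPM, against 19.6 CPM in PM2.5 library 3 and 10.1 to 44.0 CPM in controls. In PM2.5 libraries 1 and 2 most of this sum came from the general epithelial keratin genes Krt7 and Krt18. The other 4 markers summed to 30.4, 7.20 and 7.63 CPM in PM2.5 and 6.46, 11.7 and 6.52 CPM in controls, so that beyond the keratins library 1 alone was high. The 5 smooth muscle markers summed to 1907 and 3510 CPM in PM2.5 libraries 1 and 2, 709 CPM in PM2.5 library 3 and 455 to 892 CPM in controls. The 4 oviduct epithelium markers in the table summed to 74.9, 127 and 35.4 CPM in PM2.5 and to 8.42 to 43.7 CPM in controls, with Pax8 in every PM2.5 library above every control. Pax8 made up most of the PM2.5 sums, at 46.9, 84.3 and 25.6 CPM, and the other oviduct markers overlapped between the groups. The 5 adipocyte markers summed to 47.1, 58.4 and 17.3 CPM in PM2.5 and 8.99 to 15.5 CPM in controls. In PM2.5 libraries 1 and 2 most of this sum was Adipoq, at 33.3 and 33.8 CPM. Adipoq and Fabp4 were in every PM2.5 library above every control, while Plin1 and Lep were not higher on average in PM2.5. Mean CPM was higher in PM2.5 for 5 of 6 surface epithelium, 5 of 5 smooth muscle, 4 of 4 oviduct epithelium and 3 of 5 adipocyte markers, and no marker of these lists was at 0 in a whole group. The part of these tissues in the values of Fzd10, Rspo3, Sfrp2, Wnt5a, Wnt7a, Lgr4, Dkk3 and Wnt5b was not tested.

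Among the immune markers, the 5 genes of the T and NK cell list summed to 6.01, 9.26 and 7.21 CPM in PM2.5 and 20.6 to 48.8 CPM in controls. Of its 5 markers 1, the cytotoxic protease gene Gzmb, was below every control in all PM2.5 libraries. It had 0.858, 2.42 and 0.967 CPM in PM2.5 and 12.0, 20.4 and 43.0 CPM in controls. Its log2 fold change was -4.14 ± 0.66, and it was the 1 marker of this list past the adjusted threshold (edgeR adjusted p = 0.0486). The T cell marker Cd3e overlapped, with 0.725, 1.10 and 0.584 CPM in PM2.5 and 0.690, 1.41 and 0.949 CPM in controls. Without Gzmb, the other 4 markers summed to 5.15, 6.84 and 6.24 CPM in PM2.5 and 8.62, 6.42 and 5.72 CPM in controls, and these overlapped. The part of cells that express Gzmb in the values of Nkd2, Wnt2b and Wnt10b was not tested. The summed stroma, theca, endothelium, macrophage, granulosa, luteal and oocyte markers overlapped between the groups. Single markers within 4 of these lists did not, where 27.2% of all genes tested were apart. Nr5a2 (granulosa) and Bmp15 (oocyte) were above every control in all PM2.5 libraries. Insl3 (theca) and Cdh5 (endothelium) were below every control. None of these markers passed after adjustment in edgeR, and the other markers of these lists overlapped.

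A further list of genes of the pathway and its targets had 64 genes in the table. Of these, 9 were listed as targets rather than components, Cited1 and the granulosa marker Foxl2 among them. Of the 64, 57 were tested, and none passed over all genes in edgeR. DESeq2 called 6 of them, beside 1767 of all 15303 genes. At an unadjusted p below 0.05 in edgeR, 16 passed, or 28.1% beside 20.9% of all genes tested. Of these, 7 were lower and 9 higher, with a median log2 fold change over the 57 of 0.17. In the Wnt pathway annotation that the deposited table carries from KEGG, 31 of 139 tested genes passed at that p, or 22.3%, with a median of 0.04. The smallest p belonged to Cited1, a transcriptional co-regulator that binds CBP and p300, which had 440, 246 and 65.3 CPM in PM2.5 and 29.6, 12.0 and 11.9 CPM in controls. Every PM2.5 library was above every control, and the log2 fold change was 3.81 ± 0.75 (edgeR adjusted p = 0.0724). Apcdd1, a membrane-bound Wnt inhibitor and target gene, had 57.8, 48.7 and 63.5 CPM in PM2.5 and 22.7, 27.7 and 12.6 CPM in controls, a log2 fold change of 1.43 ± 0.30 (edgeR adjusted p = 0.0782).

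The next 3 were nuclear factors and lower in PM2.5, the homeobox gene Hhex at -1.28 ± 0.31, the beta-catenin co-activator Bcl9l at -1.13 ± 0.28 and the Groucho-type co-repressor Tle3 at -0.95 ± 0.25, each with groups that did not overlap and an edgeR adjusted p of 0.110, 0.110 and 0.118. Of the 14 nuclear genes 7 had an unadjusted p below 0.05, 6 lower and 1 higher, with a median of -0.05, where 11.7% of all genes were lower and 9.17% higher. Both genes of Wnt secretion were higher at an unadjusted p below 0.05 and are named after their values were seen. Porcn, the enzyme that adds the lipid to Wnt proteins, had 16.6, 16.7 and 11.5 CPM in PM2.5 and 8.24, 8.51 and 10.1 CPM in controls, and Wls, which carries Wnt proteins to the cell surface, had 407, 247 and 263 CPM in PM2.5 and 127, 229 and 179 CPM in controls. Their log2 fold changes were 0.74 ± 0.25 and 0.78 ± 0.28, with an edgeR adjusted p of 0.170 and 0.195. The cytoplasmic genes had 2 of 17 at an unadjusted p below 0.05 and a median of 0.02, and the Dishevelled genes Dvl1, Dvl2 and Dvl3, whose products bind Naked cuticle proteins, lay between -0.15 and -0.02.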

How the data were processed

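Per the labels' protocols, poly(A) RNA was copied with dUTP, which marks strand, and sequenced from both ends. The tools listed, without roles, per the submitters' processing notes are HISAT2 2.2.1, StringTie 2.1.6, edgeR, DESeq2 and cutadapt 1.9. Genome build, annotation and whether counting used strand: not given in the sources used here. The count columns, as deposited, hold whole numbers per gene and library. The FPKM columns, as deposited by the authors, are per kilobase and per library total, and served for the filter, levels between genes and the limma alternatives. The reference tables at hand are of the mouse, so no sequence or motif is given.

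Genes whose mean FPKM was 0.5 or more entered the test, made on their counts with edgeR 4.0.16 in R 4.3.3 (TMM, estimateDisp, glmQLFit, glmQLFTest), two-sided, adjusted by Benjamini-Hochberg over all 15303 genes at 0.05. The SE is the log2 fold change divided by the square root of F. Alternatives used limma 3.58.1 and DESeq2 1.42.0, and the fits were tested on simulated data. Libraries of a group differed by a chi-square of at least 112 per degree of freedom, more than counting noise, so none is a second copy of another library's reads. That does not show separate animals. For a gene with no count in a group, the mean CPM of the other group was set against 3 counts per library.

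Genes named are Nkd2, Axin2, members with an unadjusted p below 0.05 or separate groups and a log2 change of at least 1, the 3 most abundant of each role, the 5 other pathway genes with the smallest p, and members on or off by group. Further members are given as values and were chosen after their values were seen. The members, lists and rules were chosen with earlier results of these data known.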

Additional observations from a re-analysis of the deposited data

How the results depend on the processing

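Among the alternatives, the count of genes changed was 142, and was 8 without a filter on low values, 87 with edgeR's own filter and 1767 with DESeq2. In limma it was 156, 186 and 180 at pseudocounts of 1, 0.5 and 0.1. With the replicate block it was 1 in edgeR and 0 in limma (2259 at an unadjusted p below 0.05). It was 0 to 7 with a library left out. Wnt members changed numbered 1 (Nkd2), and 8 with DESeq2, 2 with limma at each pseudocount (1, 0.5 and 0.1; Nkd2 and Wnt2b), 0 with either replicate block (11 at an unadjusted p below 0.05 in each, 29.7% of members beside 14.5% of all genes in edgeR and 14.8% in limma) and 0 to 1 with a library left out. Members at an unadjusted p below 0.05 numbered 9, and 16 without a filter (12 lower and 4 higher), where 51 members entered the test, 31.4% beside 16% of all genes. Other pathway genes changed numbered 0, and 6 with DESeq2. All genes at an unadjusted p below 0.05 numbered 3193, and 1898 to 3493 with a library left out. Members whose groups do not overlap numbered 9, 15 without a filter and 5 with a mean of at least 1 FPKM, where fewer genes entered. In these alternative settings the share of all genes without overlap was not counted. The cause of the other shifts was not tested.

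Of the alternative values for single genes, 462 kept direction and side of the threshold, 4 lost a call (all Nkd2), 15 gained one and 9 turned sign, none of these a called gene. With a library left out, log2 fold changes that turned sign in at least 1 case ran from -0.29 to 0.54 for Nkd1, from -0.0445 to 0.39 for Rnf43, from -0.16 to 0.52 for Rspo1, from -0.15 to 0.69 for Sfrp1 and from -1.30 to 0.72 for Sfrp4. The labels do not say that same-numbered libraries were paired, and their deviations correlated at -0.296, 0.133 and -0.0525, so the block is given only as an alternative. No PM2.5 library correlated best with the control of its own number, while control 2 did so with PM2.5 library 2. With 3 libraries a group, members with a large SE, such as Sfrp4 (0.84) and Fzd10 (1.42), are measured with little precision.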
